A study of Mus musculus with 2 samples.

Results

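The genes described here make, package, take up and break down gamma-aminobutyric acid (GABA), the transmitter that Purkinje cells release onto their targets. They are Gad1, Gad2, Slc32a1, Slc6a11, Slc6a13, Abat and Aldh5a1, 7 of the 43346 mouse genes in the files, chosen by symbol for their place in the pathway. Each symbol matched 1 gene in both libraries. The libraries were made from pools of 50 Purkinje cells of wild-type male C57Bl6 mice (strain B6NCrl in the sample names) aged 8 months, collected by laser capture according to the protocol linked in the labels. There was 1 group with 2 biological replicates, pool 1 and pool 2, and both carry the same donor identifier. Separate animals are therefore not shown by the labels, and differences between the libraries could be technical.

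Glutamate is turned into GABA by the glutamate decarboxylases, of which neurons have GAD67 (the product of Gad1), found through the cell body and the terminals, and GAD65 (Gad2), which is enriched at nerve endings. The vesicular transporter VGAT (Slc32a1) fills synaptic vesicles with GABA. After release, GABA is cleared by sodium-coupled carriers, among them GAT-3 (Slc6a11), known from astrocytes, and GAT-2 (Slc6a13), known in the brain mainly from the meninges and blood vessels. In mitochondria GABA transaminase (Abat) converts it to succinic semialdehyde, which succinic semialdehyde dehydrogenase (Aldh5a1) oxidises to succinate. Carriers of GABA other than these and Slc6a12 are not analysed here.

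Gad1 and Gad2 lie apart on chromosome 2 (GRCm38, the mm10 assembly of the files; Gad1 at 70553072 to 70602014, Gad2 at 22622205 to 22693874, both on the plus strand). Their main coding transcripts have 16 coding exons each, and the last 12 have the same coding length in both genes, exon by exon. Over these 1235 bases the coding sequences were identical at 70.2% of positions. The closest stretch of 60 bases, in coding exon 13, is shown because it bears on whether reads of the paralogs can be told apart. It lies at chr2:70594678-70594737 in Gad1 and chr2:22681342-22681401 in Gad2, and capitals mark the 9 bases that differ:
Gad1: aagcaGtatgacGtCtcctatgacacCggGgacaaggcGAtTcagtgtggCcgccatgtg
Gad2: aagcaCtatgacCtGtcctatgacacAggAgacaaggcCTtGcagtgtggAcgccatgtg

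The longest run of bases that the full transcripts Gad1-201 and Gad2-201 share is 17. The effective lengths in the files lie 99 bases below the transcript lengths, and all expected counts of both genes were whole numbers. A processed pseudogene, Gad1-ps, was assigned 3 counts in pool 1 and 4 in pool 2. The coding sequences of Slc6a11 and Slc6a13 were identical at 71.7% of 1803 aligned bases, with a longest shared run of 19.

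The transcripts of Gad1 differ at the end where translation starts, and the next sequences are shown because most Gad1 reads were assigned to a transcript that lacks the annotated start codon. The first coding bases of Gad1-201, the annotated full-length coding transcript, lie in its second exon (chr2:70563832-70563910, plus strand), with the start codon in capitals. Gad1-206, annotated as a processed transcript with no coding sequence, begins instead with an exon of its own at chr2:70566377-70566453, which holds 0 ATG triplets:
Gad1-201 first coding bases: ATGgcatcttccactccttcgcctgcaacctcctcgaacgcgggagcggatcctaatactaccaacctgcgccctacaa
Gad1-206 first exon: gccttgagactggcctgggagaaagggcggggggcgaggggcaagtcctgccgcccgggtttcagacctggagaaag

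Levels are given in TPM, the length-corrected share of each gene in the transcripts of a library, as the authors deposited it. Intervals are exact Poisson intervals at 95% on the expected count and cover counting error only. Synthesis led the pathway: the 2 decarboxylase genes together reached 513 TPM in pool 1 and 397 in pool 2, which was 80.7% and 82.3% of the summed TPM of the 7 genes. Breakdown followed with 110 and 75.3 TPM, vesicle loading had 8.97 and 7.39, and the 2 uptake carriers had 3.28 and 2.67 together.

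Gad1 had 424.46 TPM in pool 1 (interval 419 to 430, from 24721 counts) and 345.26 in pool 2 (341 to 350, from 25499 counts), a mean of 385 ± 56.0 (SD, n = 2). It ranked 260th and 352nd by TPM among 21474 protein-coding genes. Gad1 was the highest of the 7 genes in both pools, and its lower pool lay above the higher pool of every other member. The 3 protein-coding genes closest to Gad1, by Euclidean distance of log2(TPM + 1) over the 2 pools, were Tmx2, Ptges3 and Cbx3, at distances of 0.0396, 0.0769 and 0.0838. With 2 libraries of 1 group this is closeness of level only.

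Gad2 had 88.33 TPM in pool 1 (86.4 to 90.3, 8005 counts) and 51.76 in pool 2 (50.5 to 53.0, 6651 counts), a mean of 70.0 ± 25.9 (SD, n = 2). The pools therefore differed by far more than these intervals span. The intervals treat reads as independent and leave out error in the split between transcripts. Gad1 exceeded Gad2 by 4.81 times in pool 1 and 6.67 times in pool 2, so Gad1 took 82.8% and 87.0% of their summed TPM. By expected counts, which are not corrected for length, the share was 75.5% and 79.3%. Restricted to the full-length coding transcripts Gad1-201 and Gad2-201, it was 47.0% and 50.7%, that is, about level between the genes as assigned. These values rest on the assignment of Gad1 reads to transcripts, which was not checked here.

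Slc32a1 (chromosome 2, 158610767 to 158615748, plus strand) was low next to the enzymes that supply its substrate. It had 8.97 TPM in pool 1 (8.19 to 9.81, 480 counts) and 7.39 in pool 2 (6.76 to 8.07, 502 counts), a mean of 8.18 ± 1.12 (SD, n = 2). The ratio of Gad1 to Slc32a1 was 47.3 in pool 1 and 46.7 in pool 2, nearly the same in both, while that of Gad2 to Slc32a1 was 9.85 and 7.0. Such ratios within a pool do not depend on how the pools are scaled to each other. Slc32a1 has 1 annotated transcript, of 2797 bases, so its level does not depend on a split between transcripts. The ratio to Gad1 does depend on one. Of the 424.46 and 345.26 TPM of Gad1, its full-length coding transcript Gad1-201 had only 61.58 and 47.46. At position 69.5 and 68.2 on a percentile scale of protein-coding genes, it stood well below Gad1 at 98.8 and 98.4. An antisense gene that shares 697 exon bases with it, Gm14205, had 0 counts in both pools.

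The 2 uptake carriers were the lowest members. Slc6a13 (chromosome 6, 121300227 to 121337733, plus strand) had 2.78 TPM in pool 1 (2.26 to 3.38, 101 counts) and 2.21 in pool 2 (1.79 to 2.70, 95 counts), with a mean of 2.5 ± 0.403 (SD, n = 2). Slc6a11 (chromosome 6, 114131241 to 114249952, plus strand) had 0.50 TPM in pool 1 (0.356 to 0.684, 39 counts) and 0.46 in pool 2 (0.337 to 0.614, 46 counts). The intervals of Slc6a11 lay below 1 TPM in both pools. It was the only member that missed the detection threshold of 1 TPM in both pools, which 6 of the 7 members passed; 51.7% of all protein-coding genes did.

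Of the breakdown enzymes, Abat (chromosome 16, 8513429 to 8621568, plus strand) had 97.4 TPM in pool 1 (94.8 to 100, 5439 counts) and 65.88 in pool 2 (64.1 to 67.7, 5039 counts), a mean of 81.6 ± 22.3 (SD, n = 2). Aldh5a1 (chromosome 13, 24907579 to 24937661, minus strand) had 12.62 TPM in pool 1 (12.0 to 13.3, 1389 counts) and 9.45 in pool 2 (8.95 to 9.97, 1319 counts), a mean of 11 ± 2.24 (SD, n = 2). The first enzyme of the route thus exceeded the second by 7.72 and 6.97 times in TPM, but by 3.91 and 3.82 times in expected counts. With every read taken at the length of the principal coding transcript, Abat was at 60.4 and 44.1 TPM, with Aldh5a1 as before, so the size of this gap depended on the short Abat model described with the transcripts. Aldh5a1 shares exon bases with 2 genes on the opposite strand, 203 with 9330162012Rik, which had 2.79 and 3.36 TPM, and 796 with 4932702P03Rik, which had 0.04 and 0.16, and its counts were partly fractional. Because the strand setting of the counting is unknown here, reads in those overlaps cannot be assigned with certainty.

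The order by mean TPM was Gad1, Abat, Gad2, Aldh5a1, Slc32a1, Slc6a13 and Slc6a11, and it was the same in each pool alone. The ranges of Abat and Gad2 over the pools overlapped, so these neighbours were not called apart. Within each pool Abat was the higher by TPM, at 1.1 times Gad2 in pool 1 and 1.27 times in pool 2. With every read counted at the length of the gene's principal coding transcript (an alternative chosen after the data were seen), Gad2 had 71.5 and 46.8 TPM and Abat 60.4 and 44.1, so that their order turned. It also turned by expected counts, where Abat was at 0.679 and 0.758 times Gad2. All other neighbours were separated, in that the lower pool of the one exceeded the higher pool of the next. For Aldh5a1 (9.45 in pool 2) and Slc32a1 (8.97 in pool 1) the margin was small. The counting intervals of these 2 values overlapped, at 8.95 to 9.97 and 8.19 to 9.81.

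**Figure D1:**
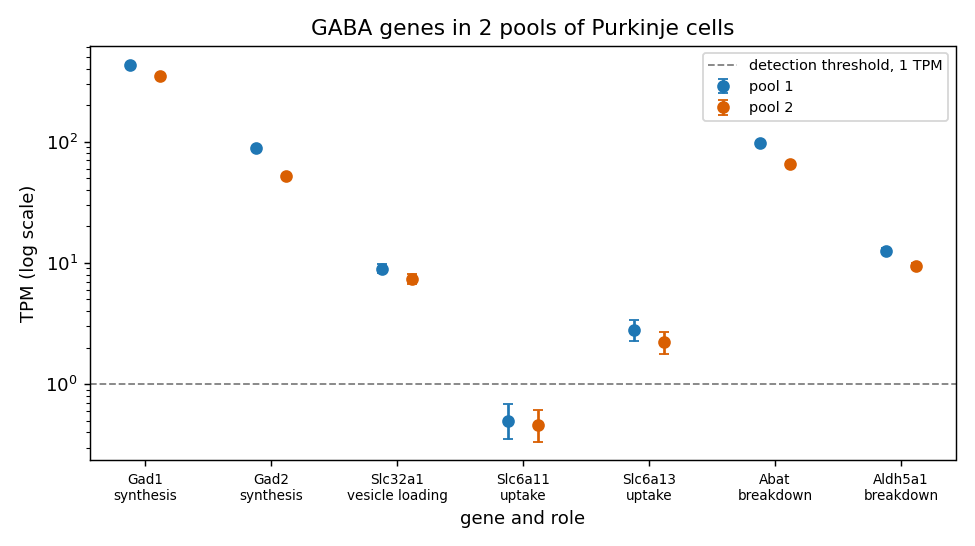
TPM on a log axis of the 7 genes, named with their roles, in pool 1 (blue) and pool 2 (orange); bars are 95% Poisson counting intervals, smaller than the points for the high genes, and the dashed line is 1 TPM. Gad1 stands highest at 424.46 and 345.26 TPM, Slc32a1 lies at 8.97 and 7.39, and Slc6a11 is below the line in both pools.

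The split of Gad1 between transcripts was close in the pools. Of 8 annotated transcripts, Gad1-206 took 84.54% of the gene's TPM in pool 1 and 85.52% in pool 2, or 85.0% ± 0.693 (SD, n = 2). Gad1-201 took 14.51% and 13.75%. In TPM, Gad1-206 had 358.84 and 295.27, and Gad1-201 had 61.58 and 47.46. Thus the transcript that encodes full-length GAD67 in the annotation received about as much as Gad2-201, with 69.37 and 46.21 TPM.

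The assignment rests on a small part of the gene. Gad1-206 and Gad1-201 share 2919 bases, which is 97.4% of Gad1-206 and 87.0% of Gad1-201. Gad1-206 holds 77 bases that Gad1-201 lacks, the first exon printed above, and Gad1-201 holds 434 bases ahead of the shared exons, among them the start codon printed above. Reads from the shared exons do not separate these transcripts. Read coverage at the 5′ end, which would be needed to judge the assignment, was not examined. The longest reading frame of Gad1-206 that opens with ATG has 444 codons, starts in its exon 4 and ends at the stop codon of Gad1-201, whose coding sequence has 593 codons. It thus lacks the first 149 codons of Gad1-201, and whether it is translated is not measured here.

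Short coding forms of Gad1 were near 0. Gad1-205, which has a coding sequence of 223 codons, took 0.47% and 0.12% of the gene, from 64 and 17 expected counts. Gad1-202, an incomplete coding model, took 0.44% and 0.56%. Of the remaining models, 3 had 0 counts in both pools.

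Gad2 has 2 annotated transcripts, and their split moved between the pools. The coding transcript Gad2-201 (5744 bases) took 78.54% in pool 1 and 89.28% in pool 2. Gad2-202, a processed transcript of 721 bases, took 21.46% and 10.72%, or 18.96 and 5.55 TPM. Only 234 and 87 expected counts stand behind those Gad2-202 values, 2.92% and 1.31% of the gene's counts, because a short model turns few reads into a large TPM. Gad2-202 starts within the first intron of Gad2-201, and the 132 bases that it does not share with that transcript (chr2:22623304-22623435, plus strand) are shown because they set it apart:
Gad2-202 own bases: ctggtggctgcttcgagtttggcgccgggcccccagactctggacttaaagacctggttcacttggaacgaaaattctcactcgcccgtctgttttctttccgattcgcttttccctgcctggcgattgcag

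**Figure D2:**
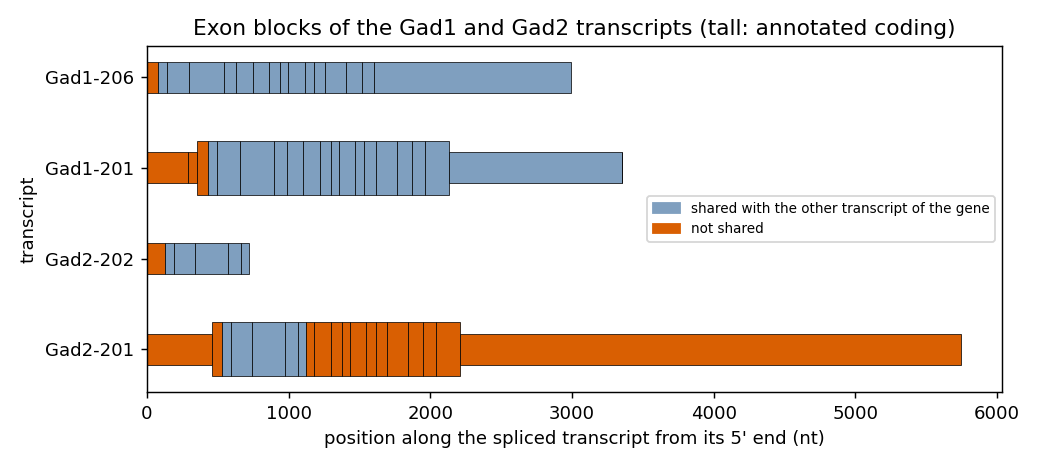
Exon blocks of 2 transcripts each of Gad1 and Gad2 along the spliced RNA in nucleotides from the 5′ end; tall blocks are annotated as coding, blue blocks are shared with the other transcript of the gene and orange blocks are not. Gad1-206 and Gad1-201 share 2919 bases and differ at the 5′ end, where Gad1-206 has 77 bases of its own, while Gad2-202 covers only the early exons of Gad2-201.

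Abat was divided between a complete and an incomplete model. Abat-201, the principal coding transcript of 4636 bases, had 56.0% of the gene in pool 1 and 61.43% in pool 2. Abat-205, a model of 696 bases whose coding sequence is annotated as incomplete, took 43.15% and 36.6%. By expected counts Abat-201 held 90.3% and 91.7%. Abat-205 has 0 bases of its own, and it differs from Abat-201 within its span by leaving its exon 4 early, by 72 bases (chr16, plus strand). The 15 bases on each side of that junction are shown, from 8582768 to 8588900 in Abat-205 and from 8582840 to 8588900 in Abat-201, with capitals for the start of the next exon, since reads across it can separate the models:
Abat-205: atgaagagagcagagGTTACAACCATCCGG
Abat-201: cctctgtgcccatagGTTACAACCATCCGG

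Slc6a13-201, the coding transcript of GAT-2, took 80.36% and 71.47% of its gene. The retained-intron model Slc6a13-203 took 17.96% and 23.39%, from 5 and 7 expected counts, so its level is hardly measured. Slc32a1, Slc6a11 and Aldh5a1 each had 1 annotated transcript.

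**Figure D3:**
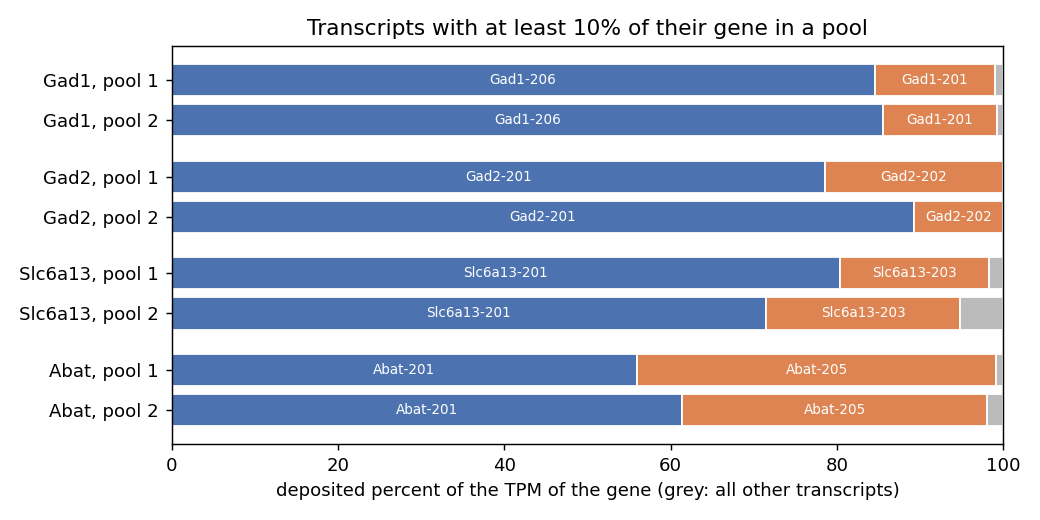
Stacked bars from 0 to 100 of the deposited percent of each transcript in the TPM of its gene, for the 4 members with several transcripts, in each pool; grey is the sum of the transcripts under 10% in both pools. Gad1-206 takes 84.54% and 85.52% of Gad1, and Gad2-202 takes 21.46% of Gad2 in pool 1 and 10.72% in pool 2.

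Between the pools, all 7 members were lower in pool 2 in TPM. The difference in log2(TPM + 1), pool 2 minus pool 1, which understates ratios of low genes, was -0.76 for Gad2, -0.56 for Abat, -0.38 for Aldh5a1 and -0.30 for Gad1. It was -0.25 for Slc32a1, -0.24 for Slc6a13 and -0.04 for Slc6a11. Of the 13210 genes with a mean of at least 1 TPM, among them 6 members, 58.4% were lower in pool 2, and the medians were -0.34 over these 6 members and -0.07 over all genes. With 1 library on each side there is no test, and a fold of 1.5 on this scale is used as a mark. Gad2 alone of the members passed it, lower in pool 2, where 7.24% of all genes passed, and no member passed it in the other direction, where 4.26% did. Part of the fall of Gad2 lay in the short Gad2-202, at 18.96 and 5.55 TPM from 234 and 87 expected counts. Gad2-201 by itself, at 69.37 and 46.21 TPM, had -0.58, next to the mark but just short of it. With every read at the length of the principal transcript, Gad2 had -0.60.

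Set among the 2071 genes within 2-fold of its mean TPM, the ratio of Gad2 stood at percentile 1.69. Abat stood at percentile 4.68 among 1903 genes and Gad1 at 8.73 among 561. The other 4 members lay between percentiles 20.4 and 46.8. These percentiles describe the libraries and are not p-values.

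The differences depended on the scale. With the reads divided by the reads of the ERCC spike-ins, synthetic RNAs added to each library, every member was higher in pool 2, from 0.08 for Gad2 to 0.59 for Slc6a11, and the median of all genes was 0.60. Relative to that median, 6 members lay below it, at 0.41 or less, and Slc6a11 lay next to it. Reads scaled by edgeR's TMM factors gave -0.52 for Gad2, under the mark. Genes with longer transcripts were lower in pool 2 in general: at a mean of at least 10 TPM the median log2 ratio was 0.13 for 1168 genes under 1000 bases and -0.36 for 715 genes of 4000 bases or more. After a fit on transcript length was subtracted, Gad2 was at -0.52, Abat at -0.41, and the other members between -0.21 and 0.17. The part of transcript length in the difference of the members was otherwise not tested.

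**Figure D4:**
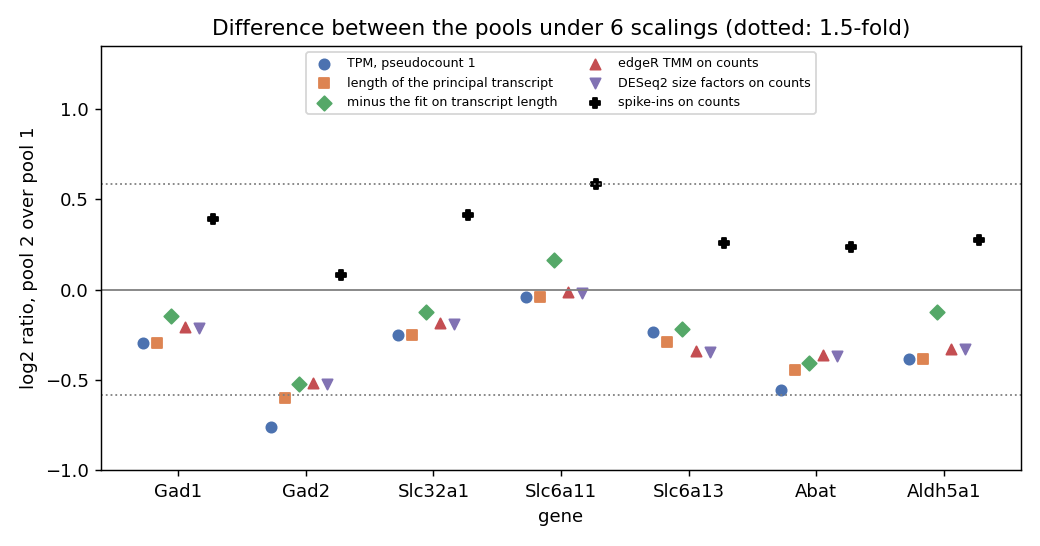
Log2 ratio of pool 2 over pool 1 for each of the 7 genes under 6 scalings, 1 symbol per scaling; the solid line is 0 and the dotted lines mark 1.5-fold. Gad2 is the lowest member under each of the 6 scalings, at -0.76 by TPM and 0.08 by spike-ins, and the spike-in values lie above 0 for every gene.

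RNA of other cells was present in the pools, and fewer cells of a type and less RNA per cell cannot be told apart in such data. All 15 genes of the Purkinje cell list passed 1 TPM in both pools, but so did every marker of several other lists, so passing does not check the label. Of all protein-coding genes 51.7% passed. By level, this list had the highest sum of the marker lists, 42132 TPM in pool 1 and 40507 in pool 2. Pcp4, Gng13 and Pcp2 were highest at 16961 ± 290, 9716 ± 206 and 6384 ± 198 TPM. Molecular layer interneurons and Golgi cells also make GABA and would add Gad1, Gad2 and Slc32a1 reads. The 8 interneuron markers were all detected and summed to 406 TPM in pool 1 and 341 in pool 2. Npy, which also occurs in other neurons, made up 350.39 and 268.96 of this, and Prkcd (9.83 and 38.65 TPM) and Nxph1 (16.37 and 11.16) followed. Of the 5 Golgi or glycinergic markers 2 were detected, and the list summed to 9.11 and 22.3 TPM. Sst had 1.01 and 13.35 TPM, Lgi2 had 6.43 and 6.96, and the glycine transporter Slc6a5 had 0.98 in both pools. The part of interneuron RNA in the levels of Gad1, Gad2 and Slc32a1 was not tested.

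Slc6a11 was near the limit although astroglial RNA was plentiful. All 13 Bergmann glia and astrocyte markers were detected, with summed TPM of 4563 in pool 1 and 4760 in pool 2, led by Apoe (2158 ± 472 TPM), Slc1a3, the glial glutamate transporter (968 ± 164), and Fabp7 (469 ± 64.0). Slc6a13 was measured beside few markers of meningeal and perivascular fibroblasts: 4 of 10 were detected, all 10 summed to 16.3 and 12.0 TPM, and Slc47a1 had 0 counts in both pools. The highest of them were Dcn (7.58 ± 2.13 TPM), Col1a2 (2.22 ± 0.495) and Lum (1.62 ± 0.127). Endothelial and pericyte markers were all detected (8 of 8), with sums of 124 and 151 TPM, led by Ly6c1 (76.3 ± 19.2), Vtn (24.7 ± 1.22) and Slco1a4 (13.8 ± 0.495). The part of each cell type in the carrier reads was not tested.

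The remaining lists were of other cells. Granule cell markers summed to 134 and 168 TPM (8 of 10 detected; Gabra6 44.8 ± 9.01, Neurod1 27.1 ± 4.96, Gabrd 23.4 ± 1.12). Oligodendrocyte markers summed to 238 and 229 (10 of 10 detected; Cnp 103 ± 5.54, Mbp 52.1 ± 6.97). Microglial markers summed to 20.7 and 33.3 (5 of 8 detected; C1qb 10.7 ± 2.91, C1qc 6.04 ± 3.17, P2ry12 3.0 ± 0.198). Of the 10 lists, blood markers had the highest ratio between the pools, with summed levels of 651 TPM in pool 1 and 2274 in pool 2 (5 of 5 detected; Hba-a2 638 ± 499, Hbb-bs 424 ± 327, Hba-a1 257 ± 202). Pool 2, in which the GABA genes were lower by TPM, thus had the higher sums of blood, Golgi cell, microglial, granule cell, endothelial and astroglial markers. The rise of the Golgi sum lay mostly in 1 gene, Sst (1.01 and 13.35 TPM). In the astroglial list Apoe rose from 1824.65 to 2492.15 TPM, while 9 of the 13 markers were lower in pool 2. Gene by gene, however, the median log2 ratio of pool 2 over pool 1 was -0.33 for the 15 Purkinje cell markers, of which 9 were lower in pool 2, beside -0.34 for the 6 GABA genes tested. It was -0.29 for the interneuron markers, -0.28 for the astroglial markers, -0.30 for the fibroblast markers and -0.24 for the oligodendrocyte markers. For each of the other lists it was above 0. For the Golgi list this median rests on 2 genes, and for the endothelial and pericyte list it was 0.02, with 4 of 8 genes lower in pool 2. The part of any cell type in the difference was not tested.

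**Figure D5:**
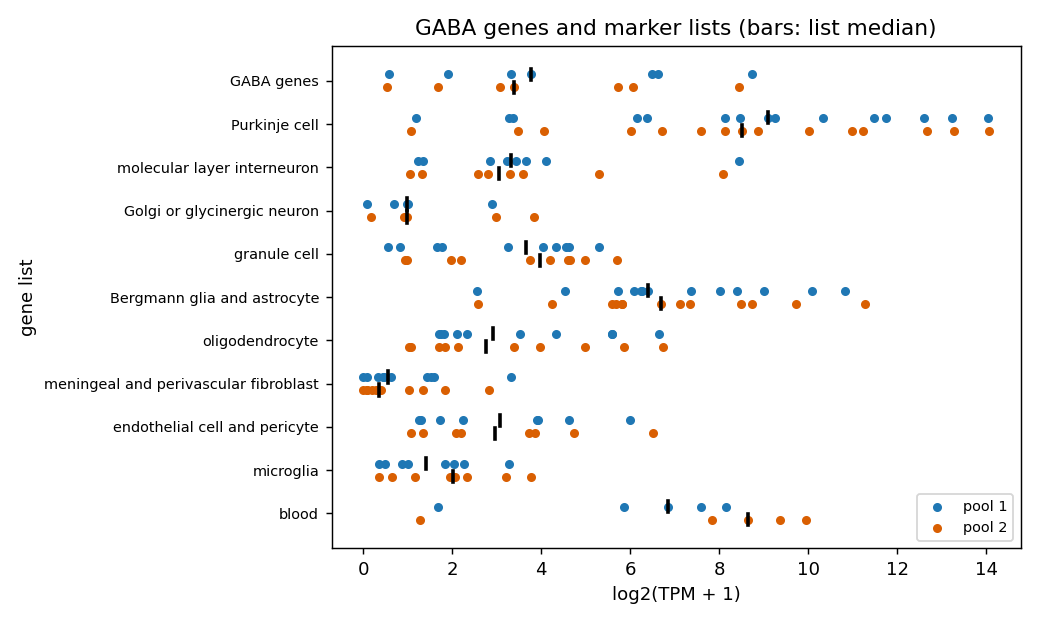
Each point is 1 gene at its log2(TPM + 1) in pool 1 (blue) or pool 2 (orange), for the 7 GABA genes and 10 lists of cell type markers, with black bars at list medians. Purkinje cell markers reach the highest values, the astroglial list lies well above the fibroblast and Golgi lists, and the blood list has the higher median in pool 2.

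The wider pathway was taken from a list of 38 genes in 7 roles, of which 37 were found in the files and 28 were detected in both pools. Of all protein-coding genes 51.7% were detected in this way, which is the share to set beside the counts of each role. Of the 10 genes for the supply of glutamate and glutamine, 9 were detected. Got1, the cytosolic aspartate aminotransferase, had 380 ± 24.4 TPM, and Glul, glutamine synthetase, had 88.4 ± 8.84. Glul is also abundant in astroglia. Got1 thus lay at the level of Gad1, with 362.85 TPM in pool 1, below Gad1, and 397.41 in pool 2, above it.

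Genes next to the GABA shunt covered a wide range of levels. All 6 genes of the shunt and of succinic semialdehyde metabolism were detected, led by the succinyl-CoA ligase subunits Suclg1 (275 ± 15.3 TPM) and Sucla2 (225 ± 40.3), while Suclg2 (6.74 ± 0.474) and Adhfe1 (5.8 ± 0.778) were the lowest. Aldh5a1, at 11 ± 2.24 TPM, lay below Akr7a5 (35.9 ± 4.43), an aldo-keto reductase that acts on the same semialdehyde. Pdxk, a kinase that helps to supply pyridoxal phosphate, the cofactor of both decarboxylases and of GABA transaminase, had 6.91 ± 0.912 TPM. Routes to GABA that do not use glutamate decarboxylase had 4 of 5 genes detected, with Aldh1a1 at 52.0 ± 1.20 TPM and Odc1 at 41.2 ± 5.13.

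Proteins linked to the anchoring of GAD65 at membranes were all detected (3 of 3), with Hspa8, a chaperone, at 1911 ± 98.7 TPM and Dnajc5, its vesicle partner, at 35.7 ± 4.01. Of the other SLC6 carriers 3 of 5 were detected, with the taurine carrier Slc6a6 at 31.5 ± 5.04 TPM and the creatine carrier Slc6a8 at 10.1 ± 2.45. The betaine and GABA carrier Slc6a12 had 0.36 and 0.86 TPM and was not detected. Slc32a1 was the highest vesicular transporter compared: of the 6 others only Slc18a2, the monoamine transporter, was detected, at 3.38 ± 0.474 TPM. Slc17a7, a glutamate transporter of granule cells, had 0.48 and 0.91. The glutamate transporters Slc17a6 and Slc17a8 and the acetylcholine transporter Slc18a3 had 0 counts, which at 3 counts allows up to 0.0358, 0.0494 and 0.0653 TPM in pool 1, and 0.0282, 0.0390 and 0.0515 in pool 2.

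Between the pools, 1 of the 28 pathway genes at a mean of at least 1 TPM passed 1.5-fold downwards in pool 2, where 7.24% of all genes did, and 1 passed it upwards, where 4.26% did. The former was Zdhhc17, a palmitoyl transferase of GAD65, with 35.48 and 22.34 TPM, and the latter was Gls2, with 2.97 and 6.60; both were named after their values were seen. The median log2 ratio of these genes was -0.12, beside -0.07 over all genes.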

How the data were processed

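Total RNA was sequenced, per the labels. Gene and transcript values were made by the authors from alignments to the transcriptome (mm10, GENCODE M4), per the notes deposited with the files. Which aligner, quantifier and strand setting they used is, in the sources used here, not given. A Smart-seq protocol is linked for pool 2 only. The deposited expected counts are estimated reads, not normalized. The deposited TPM values sum to the same total in each library, spike-ins included. The deposited percent gives each transcript's part in its gene's TPM. Totals were 23830685 expected counts in pool 1 and 27907662 in pool 2, of which spike-ins took 1.40% and 0.940%. These depths limit the precision of low genes, as their counting intervals show; without molecular identifiers, reads are not independent molecules.

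Symbols, transcript classes, exons and sequences came from GENCODE M21 on GRCm38, the same assembly, which named 42462 of 43346 mouse genes; transcript classes in M4 may differ. Of 69691 entries, 26248 with numeric identifiers were left out of gene lists. Ratios used log2(TPM + 1), genes with a mean of at least 1 TPM, and a mark of 1.5-fold. Expected counts were rounded for the scaling factors of edgeR 4.0.16 and DESeq2 1.42.0 in R 4.3.3, and spike-in scaling used summed ERCC reads. The length fit was a lowess with a span of 30% (statsmodels 0.14.6) and was tested on simulated data. Coding sequences were aligned with Biopython 1.88. With 1 group no test between conditions was possible. Other software was matplotlib 3.10.9, scipy 1.17.1, numpy 2.4.6 and pandas 2.3.3 under Python 3.11.15.

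The members and lists were chosen with earlier results of these data known. Named genes are all members, the 2 highest by mean TPM of each pathway role and any at 0 counts, the 3 highest of each marker list, the 3 genes closest to Gad1, and transcripts with at least 10% of their gene in a pool; some genes that the rule names are not reported here. Other names, namely Gad1-205, Gad1-202, Gad1-ps, Gls2, Akr7a5, Suclg2, Adhfe1, Zdhhc17, Slc6a12 and the neighbouring noncoding genes, were added after their values were seen. Alternatives were other units, thresholds, pseudocounts and scalings, each pool alone, and the length of the principal transcript, the last chosen after the data were seen.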

Additional observations from a re-analysis of the deposited data

How the results depend on the processing

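Of 131 alternative values, 91 stayed within the spread or on the same side. For levels, shares and transcript percents, 1 pool alone always lies within the SD of 2 pools. Those alternatives could not fail, so the 91 is no measure of robustness. No paired analysis was possible because there is 1 group. The share of Gad1 in Gad1 plus Gad2 (84.9% by TPM) was 77.4% by expected counts and 48.8% over the principal coding transcripts alone. With each pool left out in turn it ran from 82.8% to 87.0%. By share of expected counts, the leading transcripts took 83.9% (Gad1-206), 97.9% (Gad2-201), 91.4% (Slc6a13-201) and 91.0% (Abat-201) in place of 85.0%, 83.9%, 75.9% and 58.7%. The median log2 ratio of the 6 members tested, -0.34 by TPM, was 0.27 with spike-ins and -0.18 after the length fit. The ratio of Gad2 turned from -0.76 to 0.08 with spike-ins, which moved the median of all genes from -0.07 to 0.60. Every member turned sign in this way, and Gad2 stayed below that median. How many of all genes passed 1.5-fold under spike-ins was not counted. The count of members past 1.5-fold fell from 1 to 0 under TMM, DESeq2 size factors, spike-ins and the length fit. At the length of the principal transcript Abat was at 52.3 TPM in place of 81.6. The causes were not tested beyond this. At these depths Slc6a11 (39 and 46 counts) and the minor transcripts of Slc6a13 rest on few counts.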

Other observations

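Next to Slc32a1 a noncoding gene was higher than the transporter itself. Gm14204 (chromosome 2, 158595472 to 158610723, minus strand) is annotated as a processed transcript on the opposite strand, 43 bases away from the start of Slc32a1. It had 23.79 TPM in pool 1 (687 counts) and 23.55 in pool 2 (896 counts), with a mean of 23.7 ± 0.170 (SD, n = 2). That was 2.65 times the TPM of Slc32a1 in pool 1 and 3.19 times in pool 2. Whether strand was used in counting was not given in the sources used here, but the annotated genes do not overlap. Gad1os, which overlaps the span but no exon of Gad1 on the opposite strand, had 0.65 and 0.45 TPM from 8 and 9 counts. These neighbours were chosen after their values were seen.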
